A study of Homo sapiens with 2 samples.

Results

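The peaks described here lie in the pericentromeric flanks of human chromosomes 2, 7, 17, 18 and 20, that is, in the 2 Mb of sequence directly outside the cytogenetic centromere band on the short (p) and the long (q) arm of each. They come from a chromatin immunoprecipitation of TRF2 in HCT116, an established colorectal carcinoma cell line. A peak was a member when its summit lay in one of these 10 flanks of the assembly hg38, and summits inside the bands were left out. Membership thus rests on position, but this set of flanks was chosen with earlier results of these data known. Of 24258 peaks in the deposited list, 595 were members. The design had 1 library immunoprecipitated with an antibody to TRF2 and 1 input library of sonicated chromatin without antibody, both from HCT116 cells grown without a stated treatment, so no difference between samples could be tested. A control siRNA is named in the title of the peak list but in none of the labels. Intervals given below are at 95% and cover counting error only, and neighbouring peaks are not independent of each other.

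TRF2 is a subunit of shelterin, the protein complex that coats the double-stranded repeats of chromosome ends, where it keeps the end from being read as a break. It has also been described at telomere-like repeats inside chromosomes and at satellite DNA. Pericentromeric flanks join the satellite arrays of the centromere to the gene-bearing arm, and they are rich in satellite blocks, in segmental duplications and in pseudogene copies of genes from elsewhere. For such sequence, a short read can have several equally good positions. The sources used here do not give how such reads were treated, and no genome sequence was used, so the repeat content of the peaks was not analysed.

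The 595 peaks gave a density of 29.8 per Mb over the 20 Mb of flanks (exact Poisson interval 27.4 to 32.2). On the remaining arms of the same 5 chromosomes 602 peaks were spread over 586 Mb, or 1.03 per Mb (0.947 to 1.11), so the flanks were 29.0 times as dense (exact conditional interval of the ratio 25.8 to 32.5). The centromere bands of the same chromosomes were denser still, with 3572 peaks at 151 per Mb, and the ratio of flanks to bands was 0.197 (0.181 to 0.215). For the other 19 chromosomes, variable heterochromatin and stalk bands were taken out of the flanks, which left no flank of chromosome 19. The flanks that remained held 1109 peaks at 20.5 per Mb, and the ratio to them was 1.45 (1.31 to 1.60). That last ratio depended on which chromosomes were counted: it was 1.80 without chromosome 10 and 2.04 without chromosome Y, the pair with the most flank peaks among the others. Runs of unknown bases in the assembly were not removed from any of these lengths.

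The 10 flanks differed widely among themselves. The long-arm flank of chromosome 20, from position 30400001 to 32400000, held 168 peaks, the short-arm flank of chromosome 2 (89800001 to 91800000) 147 and the short-arm flank of chromosome 17 (20700001 to 22700000) 114. Chromosome 7 had 92 peaks in its long-arm flank (62100001 to 64100000) and 59 in its short-arm flank (56100001 to 58100000). These 5 flanks together held 580 of the 595 peaks (97.5%, exact binomial interval 95.9% to 98.6%). The other 5 held 15 peaks: 6 in the long-arm flank of chromosome 2, 6 and 3 in the short-arm and long-arm flanks of chromosome 18, and none in the long-arm flank of chromosome 17 or the short-arm flank of chromosome 20. A count of 0 in 2 Mb allows up to 1.5 peaks per Mb by the 3 counts used here for a count of 0, and up to 1.84 by the two-sided exact Poisson interval drawn in the plot of densities. Thus chromosomes 2, 17 and 20 were each dense on one side of the centromere and nearly or wholly empty on the other, chromosome 7 was dense on both sides and chromosome 18 on neither. The exact Poisson intervals of the dense and the sparse flank of chromosome 2 did not overlap (62.1 to 86.4 against 1.10 to 6.53 per Mb). Among the 27 flanks of the other chromosomes the counts were as uneven, with a median of 5 peaks, a maximum of 372 and 4 flanks of 50 peaks or more.

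**Figure D1:**
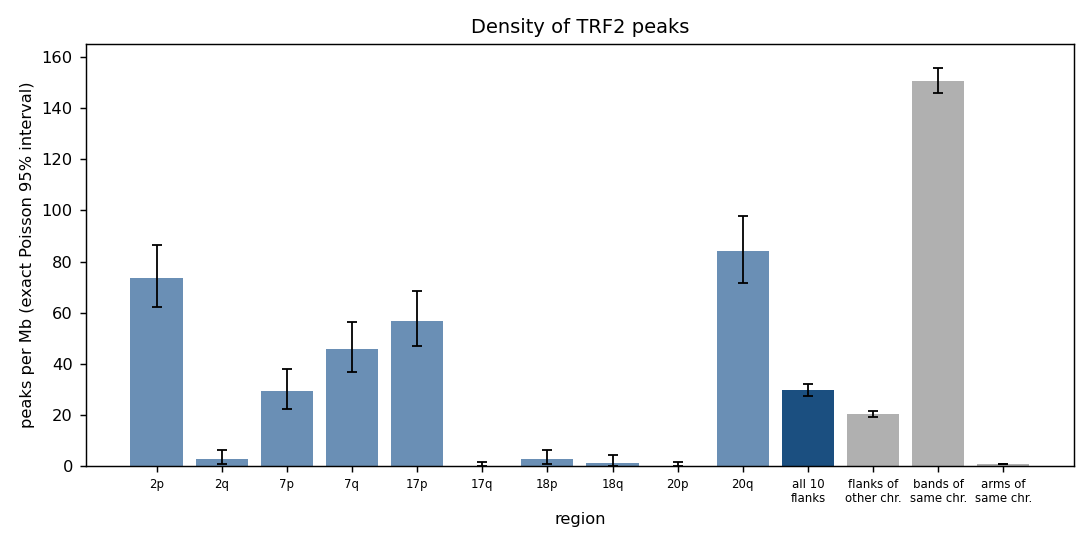
Bars show peaks per Mb, with exact Poisson 95% intervals as error bars, for each of the 10 flanks (p short arm, q long arm), for all 10 together and for the flanks of the other chromosomes, the centromere bands and the arms of the same 5 chromosomes. The flanks 20q (84.0 per Mb) and 2p (73.5 per Mb) stand highest among the 10, and 17q and 20p hold no peak.

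Peak strength in the flanks was above that of the whole list. The fold over input is the authors' value at each summit, the immunoprecipitated pileup plus 1 over the local input background plus 1. Its median was 4.70 in the flanks (range 1.93 to 21.1), 4.54 in the flanks of other chromosomes, 4.09 in the centromere bands of the same chromosomes and 3.76 on their arms. Strong peaks, those with a −log10 q of 5 or more, numbered 301 of the 595 (50.6%, exact binomial interval 46.5% to 54.7%), against 30.0% of the whole list. The share was 55.3% (52.3% to 58.2%) in the flanks of other chromosomes, 17.6% (16.4% to 18.9%) in the centromere bands of the same chromosomes and 11.0% (8.58% to 13.7%) on their arms. So in this share the pooled flanks lay above the pooled bands of the same chromosomes by more than the counting error, and not above other flanks. Single flanks were not set against their own bands, and none of the 6 peaks of 2q or the 3 of 18q was strong. At a q-value under 0.05 there were 513 flank peaks (86.2%, against 79.3% of the list), and at a fold of 5 or more 255 (42.9%, against 25.2%).

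The same unevenness held for strength. The share of strong peaks was 64.9% in the 20q flank (exact interval 57.2% to 72.1%), 60.5% in the 17p flank and 57.8% in the 2p flank (49.4% to 65.9%). In the flanks of chromosome 7 it was 20.3% on the short arm (11.0% to 32.8%) and 26.1% on the long arm (17.5% to 36.3%), below each of those 3 by more than the counting error. Both chromosome 7 shares were under the 30.0% of the whole list, and both intervals included the 17.6% of the pooled bands. Median fold followed the same order, with 5.60 in 20q, 4.90 in 17p, 4.44 in 2p, and 4.23 in both 7p and 7q. Without the 20q flank the median over the remaining peaks was 4.39 and the strong share 45.0% (40.2% to 49.8%).

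**Figure D2:**
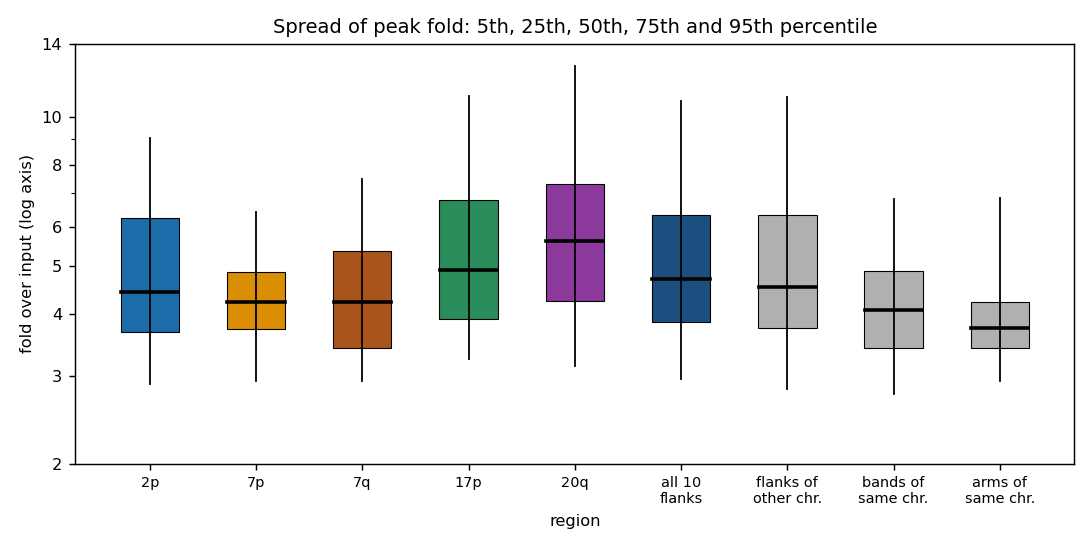
Boxes span the 25th to 75th percentile of peak fold over input (log axis), the thick line is the median and the thin line runs from the 5th to the 95th percentile, for the 5 dense flanks, all 10 flanks, and the flanks of other chromosomes, the bands and the arms of the same chromosomes. The 20q box is highest, with a median of 5.60, and the arm box lowest, with 3.76.

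The depth behind these folds was solved for each peak from its deposited fold and p-value. In the flanks the immunoprecipitated library had a median of 13 reads at the summit (5 to 130), over a median input background of 1.69 scaled reads (up to 43.4). On the arms of the same chromosomes these medians were 7 reads and 1.05, the lowest value the background takes. The background was at that minimum in 199 flank peaks (33.4%, interval 29.7% to 37.4%) and in 78.4% of arm peaks (74.9% to 81.6%). At that minimum the background is the same for every peak, so folds there differ by the pileup alone. Input depth and immunoprecipitated depth moved together among the listed flank peaks. Only peaks with a −log10 p of 3.01 or more were listed, so over a high background only a high pileup could enter. How far the 2 depths are related beyond that limit was not tested. The 94 peaks with 50 or more reads stood over a median background of 11.6, with a median fold of 5.60. The 297 peaks with 10 to 49 reads stood over 2.26, with a median fold of 5.84, and the 204 with under 10 reads over 1.05, with 3.90. The q-value is computed from the pileup and the background, so the depth sets whether a peak can be strong: at the lowest background 10 reads gave a −log10 q of 4.12 and 11 reads 5.09. The 2p flank had the deepest median, 26 reads over 4.37, while 7p and 7q had medians of 10 reads over 1.13 and 9 reads over 1.09. The part of depth in the difference in strong shares between these flanks was not tested.

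**Figure D3:**
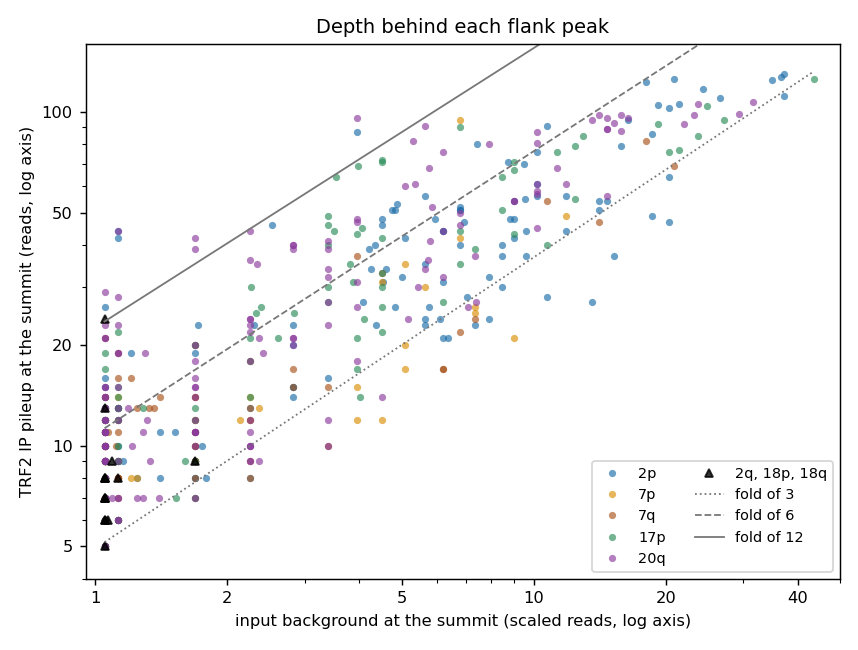
Each point is 1 flank peak, with its TRF2 IP pileup at the summit in reads against its input background in scaled reads, both on log axes, and lines mark folds of 3, 6 and 12. Points of 2p, 17p and 20q reach pileups above 100 reads where the background is also high, and the peaks of 2q, 18p and 18q (triangles) sit at 24 reads or fewer.

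The peaks came in dense blocks. When summits at most 50 kb apart were joined, 11 clusters of 10 or more peaks held 542 of the 595 peaks (91.1%, exact binomial interval 88.5% to 93.3%), on spans that add up to 1260 kb, or 6.30% of the flanks. Successive summits in a flank were a median of 895 bp apart, and 53.5% of these 587 spacings were under 1 kb. Peaks in clusters had a median fold of 4.88 and 54.2% were strong. Outside clusters there were 53 peaks, of which 7 (13.2%) were strong; their fold was 3.61 and their depth 8 reads at the median. Clusters are named here by flank and numbered from the lower coordinate, so that 20q-1 is the first in the long-arm flank of chromosome 20.

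**Figure D4:**
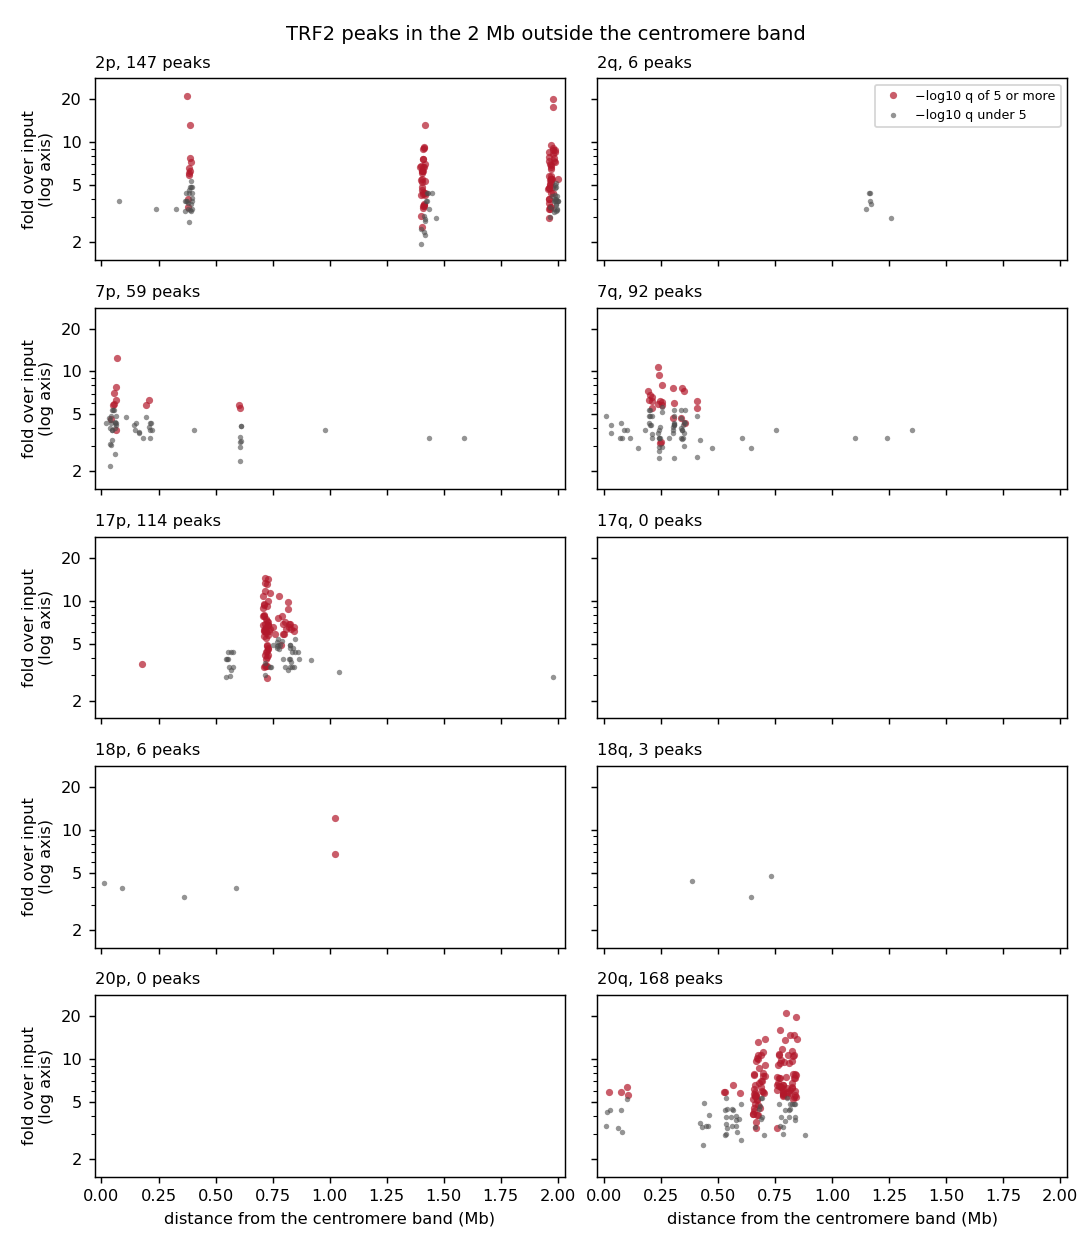
Each point is 1 peak, placed by the distance of its summit from the centromere band (Mb) and by its fold over input (log axis), in 1 panel per flank, with strong peaks (−log10 q of 5 or more) in red and the rest in grey. Most peaks stand in narrow columns or blocks: 3 columns in 2p, blocks close to the band in 7p and 7q, and the tallest blocks of 17p and 20q between 0.5 and 1 Mb, with smaller groups and single points besides.

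Distance from the band was not shared between chromosomes. Of all flank peaks, 190 (31.9%) lay within 500 kb of the band, 277 (46.6%) from 500 kb to 1000 kb, 60 from 1000 kb to 1500 kb and 68 beyond. On chromosome 7 the peaks adjoined the band, with 47 of 59 in 7p and 86 of 92 in 7q within 500 kb. On chromosomes 17 and 20 most stood off from it, with 111 of 114 in 17p and 150 of 168 in 20q between 500 kb and 1000 kb. In 2p, 34 peaks lay within 500 kb, none from 500 kb to 1000 kb and 113 farther out. Among strong peaks the share within 500 kb was 16.3%.

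In the 20q flank the 2 clusters farther from the centromere were stronger than the 2 nearer to it. Cluster 20q-1 (chromosome 20, summits from 30410844 to 30504045, band q11.21) had 11 peaks with a median fold of 4.39, of which 4 were strong, and 20q-2 (30926316 to 31000773) had 23 with a median of 3.90, of which 4 were strong. Then came 20q-3 (31051588 to 31106813) with 52 peaks, a median fold of 5.68 and 44 strong (84.6%, interval 71.9% to 93.1%). The outermost, 20q-4 (31157256 to 31282694), had 75 peaks, a median fold of 6.34 and 57 strong (76.0%, interval 64.8% to 85.1%). Beyond 31282694 no summit was listed for the remaining 1117 kb of the flank. The strongest peak of the flank, from 31198407 to 31198508, had a fold of 21.1, with 44 reads over a background of 1.13. The peak from 31241526 to 31241978 had a fold of 19.6 with 96 reads over 3.95, and its −log10 q of 89.9 was the highest of any flank peak.

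Cluster 20q-3 also held the widest peaks. Flank peaks had a median width of 112 bp (69 to 2369 bp), and 10 were wider than 1 kb (1.68%, against 0.350% of the whole list). Of these 10, 9 were in 20q-3 between 31051936 and 31074457, interspersed with narrower peaks, and the 9 alone covered 14.5 of these 22.5 kb. Their folds ran from 3.30 to 10.7 with 68 to 106 reads at the summit, over backgrounds of 5.76 to 29.3. The widest, from 31058910 to 31061278, had a fold of 7.89 with 87 reads over 10.2. The other wide peak, from 90397424 to 90398821 on chromosome 2, had a fold of 3.05 with 64 reads over 20.3.

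The 2p flank had 3 separate clusters. The farthest from the band, 2p-1 (chromosome 2, 89800024 to 89841111, band p11.2), was the densest of the 11, with 66 peaks in 41.1 kb, or 1.61 peaks per kb, and 31.7% of its length under a peak. Its median fold was 4.77 and 42 of the 66 were strong. It included peaks of fold 20.2 (89821518 to 89821871, 42 reads over 1.13) and 17.8 (89822490 to 89822634, 87 reads over 3.95). It also had the deepest flank peak, with 130 reads over 37.2 at 89833257 to 89833580, whose fold was 3.43. The flank's outer limit cut through this cluster: without the limit it began at 89769771 and had 86 peaks, 20 of them outside, with a median fold of 4.39 and 7 strong. The summit just inside the limit had a fold of 3.90 and 7 reads, and the one just outside, 417 bp beyond the limit, a fold of 4.39 and 8 reads. The limits next to the bands also ran between neighbouring peaks. At 7p the nearest summits were 21.1 kb inside the flank (fold 4.39) and 5.37 kb inside the band (3.90), and at 20q they were 10.8 kb (3.41) and 6.44 kb (5.17) away.

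Cluster 2p-2 (90335840 to 90402188) had 47 peaks, a median fold of 4.39 and 33 strong (70.2%), with the largest median background of the 2p clusters (40 reads over 6.77). Cluster 2p-3 (91402812 to 91474003) had 32 peaks, with a median fold of 4.24 and 10 strong, and was shallower, with 9 reads over 1.05. It nevertheless held the peak of highest fold in the chromosome 2 flanks, from 91423074 to 91423429, with a fold of 21.1 and 44 reads over 1.13, the same values as the strongest peak of 20q. Between 2p-2 and 2p-3 no summit was listed over 1001 kb, and an empty stretch and unassembled sequence cannot be told apart from these files.

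On chromosome 17 the cluster 17p-1 (21834532 to 21991941, band p11.2) held 99 of the 114 flank peaks, the most of any cluster. Its median fold was 5.79, and 68 peaks were strong (68.7%, interval 58.6% to 77.6%). The side of it nearer to the centromere was the richer. There the 100 kb bin from 21900001 held 72 peaks, of which 58 were strong, the most among the fixed 100 kb bins of the flanks. The edges of such bins can cut through a cluster, and stretches with other edges were not ranked. The strongest peaks of this cluster were at 21981257 to 21981588 (fold 14.3, 64 reads over 3.53) and 21972191 to 21972395 (fold 14.1, 69 reads over 3.96). The smaller cluster 17p-2 (22124163 to 22155271), on the centromere side of it, had 11 peaks of fold 2.93 to 4.39, none of them strong.

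The chromosome 7 clusters were the longest of the 11, at 0.231 peaks per kb in 7p-1 and 0.232 in 7q-1; among the 11 only 20q-1 was sparser (0.118). Cluster 7p-1 (57879807 to 58078878, band p11.2) had 46 peaks over 199 kb, with a median fold of 4.39 and 10 strong (21.7%). Cluster 7q-1 (62110867 to 62456007, band q11.21) had 80 peaks over 345 kb, with a median fold of 4.23 and 22 strong (27.5%). The strongest peaks were at 58033149 to 58033242 in 7p (fold 12.4, 95 reads over 6.77) and at 62335274 to 62335356 in 7q (fold 10.7, 21 reads over 1.05). Of the 10 flank peaks with the highest fold, 5 were in 20q, 3 in 2p and 2 in 17p, and their folds ran from 14.1 to 21.1.

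**Figure D5:**
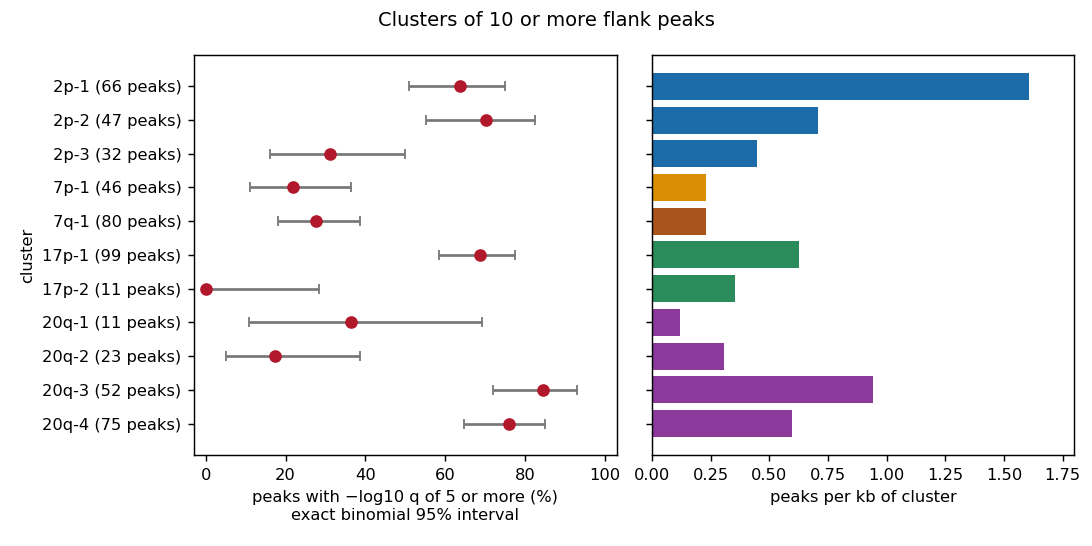
For each of the 11 clusters, from chromosome 2 at the top to chromosome 20 at the bottom, the left panel gives the percentage of strong peaks (−log10 q of 5 or more) with its exact binomial 95% interval and the right panel the number of peaks per kb of the cluster. Clusters 20q-3 and 20q-4 have the highest strong shares (84.6% and 76.0%) and 2p-1 the highest density (1.61 per kb).

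Most flank peaks lay outside annotated genes. Summits inside the span of any RefSeq gene numbered 93 of 595 (15.6%, interval 12.8% to 18.8%), against 8.86% of the whole list, 10.4% in the flanks of other chromosomes, 1.01% in the bands and 54.2% (50.1% to 58.2%) on the arms of the same chromosomes. The share was thus above that of the list, of other flanks and of the bands, and below that of the arms. Of the 93, 66 were the peaks of cluster 2p-1, which lies in the annotated span of IGK, the immunoglobulin kappa light chain locus (88857361 to 90235368). When that span was not counted as a gene, 27 of the 595 summits lay in a gene (4.54%, interval 3.01% to 6.53%). This was below the 8.86% of the whole list, a share in which that span still counts as a gene. The 66 peaks were not at kappa variable segments, which encode the antigen-binding part of the light chain: none of the 43 such genes and pseudogenes in the flanks had a summit within 3 kb, and the nearest, IGKV2D-40, was 10.7 kb away, with IGKV1D-39 at 21.4 kb. Of the 502 summits outside all genes, 257 (51.2%) were strong, and 5 of the 11 clusters overlapped no annotated gene at all.

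Protein-coding genes were mostly free of peaks. Of 167 in the flanks, 3 had a summit in their span or within 3 kb (1.80%, interval 0.372% to 5.16%), against 4.74% (4.45% to 5.04%) of the 19866 on all primary chromosomes, so no difference was detectable at this number of genes. The 3 were all weak. ANKRD36, an ankyrin repeat gene (chromosome 2, 97113153 to 97264521), held all 6 peaks of the 2q flank, with folds of 3.41, 4.39, 4.39, 3.90, 3.71 and 2.93 in order of position and 5 to 9 reads. It has near-identical copies. ANKRD36B, a copy in the same flank, had no summit within 3 kb, the nearest being 233 kb away. Whether reads were split between such copies was not tested. ZNF479, a zinc finger gene of chromosome 7 (57117676 to 57139864), and ANKRD30B on chromosome 18 (14748172 to 14941135) had 1 peak each, both with a fold of 3.90, 7 reads and a −log10 q of 1.53. None of the 286 RefSeq promoter windows in the flanks, from 250 bases before to 50 after a gene start, overlapped a member peak, which allows a share of up to 1.05% (3 counts), and 4 of 35116 such windows on all primary chromosomes overlapped a peak (0.0114%). None of the 19 miRNA genes had a summit within 3 kb, which allows up to 15.8%, against 9 of 1913 on all primary chromosomes (0.470%). At these numbers neither count of 0 could be told from the rest of the genome.

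Gene families were counted in the same way. Over genes of any kind the count was 20 of 681 in the flanks (2.94%, interval 1.80% to 4.50%), against 3.09% on all primary chromosomes. Of 10 zinc finger genes, pseudogenes and antisense transcripts, 2 had a summit within 3 kb, ZNF479 and the pseudogene ZNF734P (fold 3.90), while ZNF716 and ZNF90P3 were 13.1 kb and 113 kb from one. Of 8 POTE and ankyrin repeat genes and pseudogenes, ANKRD36 and ANKRD30B had one, and ANKRD23 and ANKRD39 lay 307 kb and 293 kb away. None of the 9 beta-defensin genes and pseudogenes, which encode secreted antimicrobial peptides, had a summit within 3 kb. DEFB115 (31257664 to 31259632), however, lies within the limits of cluster 20q-4, 13.4 kb from a peak of fold 13.8, and DEFB116 lay 20.5 kb from the last peak of that cluster (fold 2.93). The inward rectifier potassium channel genes KCNJ12 and KCNJ18 of 17p were 241 kb and 31.8 kb from a summit. The 7 cystatin genes and pseudogenes, such as CST1 and CST2P1, are in the empty 20p flank. The families of BPI fold genes and of displaced immunoglobulin heavy segments had no member in the flanks.

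Several summits lay at pseudogenes. TERF1P2, a pseudogene of TERF1, the gene of the shelterin protein TRF1, carried both strong peaks of the chromosome 18 flanks (14375940 to 14378757). They were at 14377765 to 14377874 (fold 12.2, 24 reads, −log10 q 20.6) and at 14378366 to 14378482 (fold 6.83, 13 reads, −log10 q 7.16), and in both the input background was at its minimum. The other 4 peaks of 18p and the 3 of 18q had folds of 3.38 to 4.78 and 6 to 9 reads, among them 1 in the non-coding gene LOC105372017 (fold 4.78). UBBP4, a ubiquitin B pseudogene on chromosome 17 (22090750 to 22205151), held all 11 peaks of cluster 17p-2, with 5 to 8 reads each. The pseudogene FRG1BP at the inner edge of 20q had 2 peaks, of fold 3.41 and 4.28. On chromosome 17 a peak of 70 bp (22521379 to 22521448) lay with its summit 0.704 kb from MTCYBP13, 1.91 kb from MTND6P35 and within 3 kb of MTRNR2L1, all copies of mitochondrial sequence in the nuclear genome. It had 76 reads over a background of 20.3, so that a fold of 3.61 came with a −log10 q of 16.8. The pseudogenes LOC100996792 and NKAIN1P2 had 1 weak peak each nearby (fold 3.85 and 3.90).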

How the data were processed

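The files used were the deposited peak list of 1 TRF2 IP library against 1 input library. Per the submitters' processing notes, the tools included ChIPseeker 1.36.0, HOMER, MACS2 2.1.0 and Bowtie2 2.3.2, with the build hg38. Not given in the sources used here: settings, duplicate handling, library totals. The deposited values are a fold (ratio of IP to input background at the summit), a −log10 p, a −log10 q, and a score, which is 10 times the −log10 p rounded down. The smallest −log10 p in the list was 3.01 and the smallest −log10 q 0.230.

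The pileup was solved from the authors' fold and p-value, taking fold as pileup plus 1 over background plus 1 and p as the Poisson tail above the pileup. A whole number fitted 100% of peaks within 0.001 on −log10 p. The recovery and the intervals were tested on simulated data of independent draws, so the clustering of peaks was not covered. Bands came from circlize 0.4.16 (R 4.3.3) and 58961 gene spans, without exons, from RefSeq GRCh38.p14. Positions are 1-based. Intervals are exact Poisson, exact binomial (Clopper-Pearson) or exact conditional. Scripts ran in Python 3.11.15 with pandas 2.3.3, scipy 1.17.1, matplotlib 3.10.9 and numpy 2.4.6.

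The members, lists and tests were chosen with earlier results of these data known, and the clusters, the class of peaks over 1 kb, the depth classes and the strong share after the values were seen. Spacing was also looked at for a repeating period, which is not reported. Named were the strongest peak of each flank, the 10 strongest in all, the densest 100 kb bins, protein-coding genes with a summit within 3 kb, up to 10 other genes by number of summits, and in each family at most 4 members that had a summit plus 2 that had none. The wide peaks, the deepest peak, GATA6 and the promoter distances were picked after their values were seen.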

Additional observations from a re-analysis of the deposited data

How the results depend on the processing

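The 9 results were recomputed under 53 other settings, of which 26 stayed within 1.5 times the count or within the interval of the reported value. The count of 595 peaks became 301 when only strong peaks (−log10 q of 5 or more) were kept, 255 at a fold of 5 or more and 247 when peaks under 1 kb apart were joined into loci. Median fold (4.70) was 4.98 at a q under 0.05, 6.31 for strong peaks, 6.58 at a fold of 5 or more and 4.39 without 20q. The 5 densest 100 kb bins held 45.4% of peaks, and 57.0% with 200 kb bins, 50.1% at a q under 0.05 and 67.4% of strong peaks. The share within 500 kb of the band (31.9%) was 16.3% of strong peaks and 40.9% of loci. The share inside genes (15.6%) was 12.6% of loci, and 4.54% of all 595 peaks when the IGK span was not counted as a gene. The density ratio to the arms (29.0) was 45.7 at a q under 0.05, 134 for strong peaks, 120 at a fold of 5 or more, 12.6 for loci, 38.1 with 1 Mb flanks, 24.2 without 2p and 23.1 without 20q. The ratio to other flanks (1.45) was 1.27 for loci, 1.80 without chromosome 10 and 2.04 without chromosome Y. The strong share (50.6%) was 55.1% without 7q, 45.0% without 20q and 40.5% of loci. Both density ratios stayed above 1 under every setting. The share inside genes turned with the IGK span. At 15.6% it was above the whole list (8.86%, IGK still counted) and other flanks (10.4%), and at 4.54% below both. Without 20q, median fold (4.39, interval 4.33 to 4.67) was under the 4.54 of other flanks, which that interval includes. The settings that leave out a flank, a chromosome or IGK, the loci for the strong share and the cluster gaps of 20 kb (518 peaks) and 100 kb (557 peaks) were chosen after the data were seen. No paired analysis was possible because each group has 1 library, and none could be left out. Peaks of 5 to 9 reads are near the list's limit, so weaker sites were not detectable.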

Other observations

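The flanks and the centromere bands met differently from chromosome to chromosome. In the 500 kb on either side of the band edge, 7q had 86 peaks on the flank side and 9 on the band side, whereas 7p had 47 and 118, 17p had 1 and 92, and 18p had 3 and 179. For 2p and 20q the sides were closer, with 34 and 31 peaks in 2p and 18 and 21 in 20q. The edges were those of cytogenetic bands, and how they fall relative to satellite arrays was not analysed here.

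The nearest flank peak to a promoter window was 1.90 kb from that of the non-coding gene LOC105375289 in 7p and was weak, with a fold of 3.41 and a −log10 q of 0.811. The nearest strong peak was 4.45 kb from the window of LOC105374862 in 2p, at the inner end of cluster 2p-1, with a fold of 4.67 and a −log10 q of 36.7. GATA6, a transcription factor gene of endoderm in the 18q flank, lay 26.7 kb from a peak of fold 3.38 and 6 reads.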
